A study of Mus musculus with 12 samples.

Results

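Adult crypt stem cells of the mouse small intestine were set against the midpoint of 2 other epithelial populations, the embryonic epithelium at E14.5, a stage named by its day of gestation, and the epithelium of the adult villus. The contrast took the log2 level in stem cells minus the mean of the log2 levels in the other groups, and it was used to find genes that lay above both groups or below both, off the line that joins embryo and villus. It drew on 9 of the 12 libraries in the series, 3 in each group, which were chosen by their titles, and the other 3 libraries, from E12.5, entered the estimate of the spread and served as a side value. Levels were measured by RNA-seq of sorted cells and are given per library, in the order of replicates 1, 2 and 3, as counts per 1000000 normalised counts (CPM).

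All mice were of a mixed C57BL/6 CD1 strain. The stem-cell libraries (ISC) came from crypts of 2-month-old (P60) males carrying the Lgr5EGFP-Cre-ERT allele, in which the Lgr5 promoter drives a green fluorescent protein and an inducible Cre recombinase, and held cells with high Lgr5-EGFP fluorescence. The villus libraries (AE, labelled enterocytes) came from males of the same genotype and age and held live cells, negative for the dye DAPI, that carried the epithelial surface protein EpCAM and lacked CD31 and CD45, surface proteins of endothelium and leukocytes. That gate admits every epithelial cell type of the villus material. The E14.5 and E12.5 libraries were sorted with the same surface gate from embryonic intestine, and the labels give no genotype for the embryos beyond the strain. Each adult library came from 1 gut and each E12.5 library from a pool of 20 embryos. The labels give neither the size of the E14.5 pools nor whether an ISC and an AE library share a gut. Where separate pools are not stated, p-values measure only the spread between these samples, which may be technical. The age labels of the 6 embryonic libraries are exchanged between the days relative to their titles, and groups here follow the titles.

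Lgr5-positive stem cells sit at the base of the crypt between Paneth cells, divide throughout adult life and feed every cell type of the villus. They are maintained by Wnt ligands and R-spondins, which signal through Frizzled receptors and the Lgr family, and by Notch ligands on neighbouring cells, while BMP signals rise towards the villus. The embryonic epithelium of mid-gestation is a proliferating sheet in which villi are beginning to form and crypts do not yet exist.

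The 12 libraries held between 12.6 and 45.2 reads counted to genes, in units of 1000000. In the same units, multiply aligned reads were listed at 1.93, 2.14 and 2.36 in ISC and at 1.57 to 2.26 in E12.5, and the 6 libraries of E14.5 and AE list 0 of them, so this difference in listing coincides with the contrast of ISC against the other groups and cannot be told apart from it for genes with shared sequence. ISC against E12.5 is the comparison in which both groups list such reads, and it is given beside the results for that reason. On the first principal component, which held 74.7% of the variance, ISC lay between E14.5 and AE. Scores there were from −89.9 to −80.5 in ISC, 99.0 to 101 in E14.5 and from −192 to −166 in AE. On the second, which held 14.7%, scores were 94.7 to 106 in ISC, from −11.8 to −9.6 in E14.5 and from −82.2 to −47.6 in AE. AE replicate 1 stood apart from replicates 2 and 3 on this second component. The labels were checked against markers of each cell type. The summed level of 5 stem-cell markers was 6992 to 7679 CPM in ISC, 163 to 173 in E14.5 and 705 to 830 in AE, and that of 5 enterocyte markers was 588 to 1206, 724 to 754 and 23823 to 44373 CPM. The AE libraries also held goblet-cell markers at 16934 to 28870 CPM and Paneth-cell markers at 2901 to 6891 CPM, and the ISC libraries held Paneth-cell markers at 2314 to 4007 CPM. In such bulk samples, fewer cells of a type and less RNA per cell cannot be told apart.

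Of 15342 genes tested, 4855 (31.6%) were higher and 4174 (27.2%) lower in ISC than the midpoint, with edgeR's quasi-likelihood test and a Benjamini-Hochberg adjusted p under 0.05. Which direction had more calls turned with the tool or scaling, with 4459 higher and 5015 lower by DESeq2 and 4339 and 4599 under relative log scaling. A call against the midpoint does not by itself place a gene off the course. In 1495 of the genes called higher and 1308 of those called lower, the ISC mean lay between the means of E14.5 and AE. A further 297 genes were higher than the midpoint on the log2 scale although the ISC mean was under the plain average of the 2 group means in CPM. Genes were therefore called above both groups, or below both, when ISC differed from each of them in the same direction by a log2 change of at least 1 with an adjusted p under 0.05. There were 721 genes above both (4.70% of those tested) and 664 below both (4.33%). The distance of a gene is the smaller of its 2 log2 changes, that is, its change against the nearer group. Its median was 1.55 among the genes above and −1.99 among the genes below, and 63 and 179 genes lay at least 8-fold away. Among the genes above, AE was the nearer group for 367 and E14.5 for 354, and among the genes below the numbers were 356 and 308. At the boundary, Rbm38 was the last gene inside on the upper side and Prss41 the first outside, at distances of 1.0001 and 0.9993, and Pip4k2a and Ctdspl were their counterparts below, at −1.001 and −0.9985. Of the 721 genes above both, 570 were also higher than E12.5, and of the 664 below both, 581 were also lower.

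**Figure D1:**
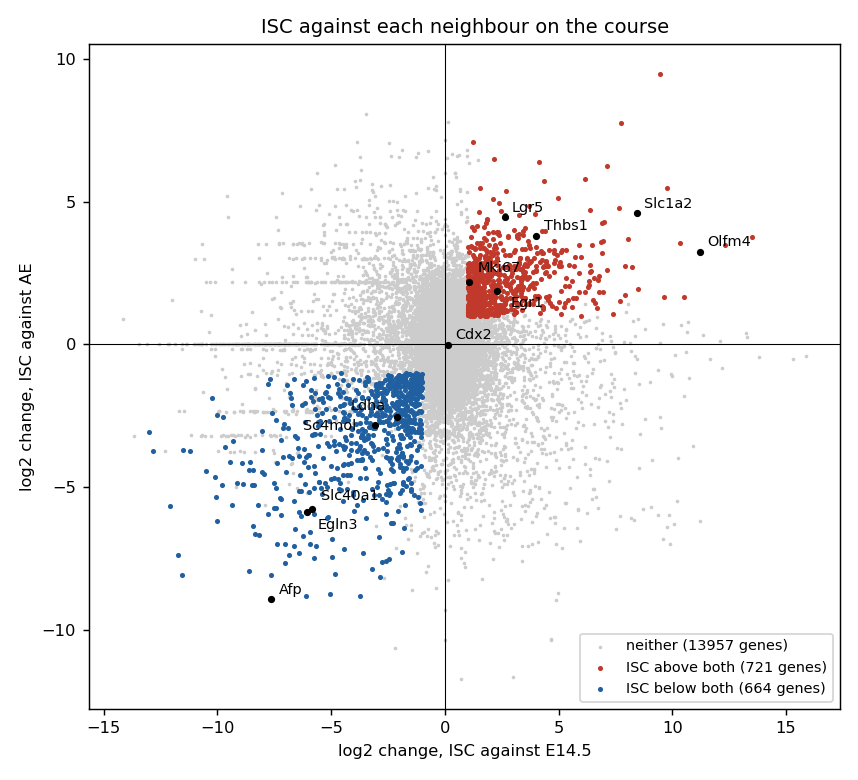
Each point is 1 of 15342 genes, with its log2 change in ISC against E14.5 on the x axis and against AE on the y axis. Red points at the upper right are the 721 genes above both groups, blue points at the lower left the 664 genes below both, and grey points the other 13957. Named points are genes described in the text.

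Among the genes that lay farthest above both groups, with at least 20 CPM in ISC, were amino-acid and urea transporters, enzymes and secreted or matrix proteins. 4933417O13Rik was farthest, at 76.3, 89.0 and 80.7 CPM in ISC, 1.61, 1.39 and 2.86 in AE and 0.0997, 0.0390 and 0.176 in E14.5. It lay 5.48 in log2, or 44.6-fold, above AE. Slc1a2, which encodes a high-affinity glutamate transporter, stood at 110.1, 82.1 and 162 CPM in ISC, 6.41, 3.02 and 4.80 in AE and 0.399, 0.254 and 0.396 in E14.5. Every ISC library was above every other library, and the log2 changes were 8.44 ± 0.35 (SE) against E14.5 and 4.58 ± 0.28 against AE (adjusted p = 7.9e-09 for the latter). 2 related transporter genes were also above both groups. Slc1a3, a further glutamate transporter gene, had 61.0, 50.8 and 61.6 CPM in ISC, 32.5, 19.2 and 22.3 in AE and 5.21, 5.99 and 5.01 in E14.5. Slc1a5, which encodes a glutamine carrier, had 164, 209.9 and 189 CPM in ISC, 69.3, 69.9 and 71.4 in E14.5 and 42.3, 28.5 and 22.5 in AE.

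Slc14a1, a urea transporter gene, stood at 255, 217 and 285 CPM in ISC and 27.2, 19.5 and 20.7 in AE, against 0, 0.0781 and 0.0439 in E14.5. Cyp2e1, which encodes a cytochrome P450 of ethanol and acetone metabolism, was at 63.0, 49.0 and 62.1 CPM in ISC, 5.19, 3.19 and 4.23 in AE and 0 in each E14.5 library. ISC was 13.5-fold above AE and, against a floor of 3 counts over the E14.5 group, at least 2213-fold above E14.5. Cbs, the gene of cystathionine beta-synthase, which channels homocysteine towards cysteine, was at 24.1, 26.7 and 24.8 CPM in ISC, 1.79, 2.05 and 2.20 in E14.5 and 2.94, 1.797 and 0.685 in AE. Prelp, which encodes a small leucine-rich proteoglycan of connective tissue matrix, had 393, 447 and 589 CPM in ISC, 44.9, 36.4 and 40.8 in AE and 0.473, 0.429 and 0.0439 in E14.5. Slc14a1, Cyp2e1 and Prelp were at or near 0 in the embryo, intermediate in the villus libraries and highest in ISC. The AE libraries also held summed stem-cell markers at 705 to 830 CPM and Paneth-cell markers at 2901 to 6891 CPM. Whether crypt cells in AE gave its levels of these genes was not tested. The stem-cell list used here holds A930009A15Rik, Cyp2e1, Gkn3, Prelp and Slc14a1 as members, so they count again among the stem-cell markers described next. Their distances were 15.7-fold for A930009A15Rik, 12.2-fold for Gkn3, 11.7-fold for Prelp and 11.1-fold for Slc14a1.

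Thbs1 and Edn1 had a clear level in the embryo as well. Thbs1 encodes thrombospondin 1, a secreted glycoprotein, and was at 521, 364 and 291 CPM in ISC, 23.7, 23.9 and 24.4 in E14.5 and 55.0, 8.99 and 16.8 in AE, while the E12.5 libraries ranged widely, at 10.9, 102 and 8.401. ISC lay above both groups without overlap, by 4.03 ± 0.84 (SE) in log2 against E14.5 (adjusted p = 0.00082) and 3.81 ± 0.83 against AE (adjusted p = 0.001). Edn1, which encodes the peptide endothelin 1, was at 237, 154 and 122 CPM in ISC, 14.6, 14.48 and 15.5 in E14.5 and 13.7, 6.29 and 9.48 in AE. For both genes replicate 1 was the highest ISC library and also the highest AE library. E030011O05Rik and Fam49a completed the 12 farthest genes, at 11.9- and 11.1-fold.

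**Figure D2:**
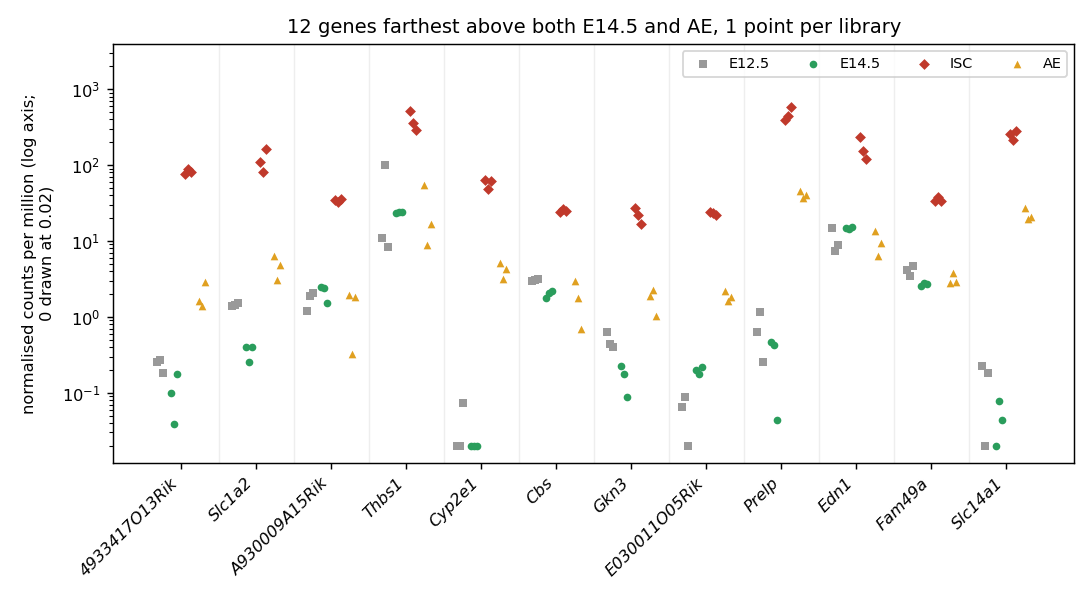
Levels of the 12 genes farthest above both groups, 1 point per library, on a log axis of CPM with 0 drawn at 0.02. Grey squares are E12.5, green circles E14.5, red diamonds ISC and yellow triangles AE, and the 3 red diamonds of each gene lie above all green and yellow points.

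The markers of crypt base stem cells were mostly above both groups, which follows in part from sorting on an Lgr5 reporter. Of 38 markers, 25 (65.8%) were above both and 0 below, and 36 were higher than the midpoint. The median log2 change from the midpoint was 2.77, against 0.03 over all genes tested, and 24 of the 25 were also higher than E12.5. Lgr5 stood at 498, 473 and 551 CPM in ISC, 78.5, 81.2 and 85.8 in E14.5 and 20.6, 26.9 and 22.5 in AE, so the embryonic epithelium had more than the villus and ISC was 6.20-fold above the embryo. Olfm4, which encodes a secreted glycoprotein of crypt base cells, reached 5671, 5558 and 6000.4 CPM in ISC and 641, 538 and 638 in AE but 2.37, 2.67 and 2.11 in E14.5. Ascl2, a Wnt-driven transcription factor gene of stem cells, was at 82.9, 112 and 148 CPM in ISC, 10.2, 10.6 and 10.6 in E14.5 and 8.31, 5.55 and 10.3 in AE. The 13 markers outside the class were Mex3a, Bmi1, Igfbp4, Sectm1b, Nrn1, Fstl1, Hopx, Tert, Soat1, Pdgfa, Sox9, Aqp1 and Znrf3. Cdx2, the homeobox gene of intestinal identity, stood at 60.1, 50.4 and 75.1 CPM in ISC, 58.9, 54.9 and 55.6 in E14.5 and 61.0, 56.4 and 69.4 in AE, and its change from the midpoint was 0.06 ± 0.12 (SE) in log2 (adjusted p = 0.7), a value whose sign turned under another scaling. Hnf4a and Epcam changed from the midpoint by 0.18 and −0.17 in log2 (adjusted p = 0.15 and 0.31).

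Among 35 Wnt genes, 7 (20.0%) were above both groups and 4 (11.4%) below, against 4.70% and 4.33% over all genes. The median log2 change from the midpoint was 0.29, or 0.45 when genes with a group at 0 are set at their bound. The 7 above were feedback genes, targets and receptors. Axin2, a scaffold of the complex that degrades beta-catenin and itself a Wnt target, was at 573, 592 and 716 CPM in ISC, 106, 95.7 and 124.61 in AE and 56.5, 56.6 and 59.8 in E14.5. Rnf43, which encodes a ubiquitin ligase that removes Frizzled receptors, was at 402, 439 and 449 CPM in ISC, 123, 129 and 116 in E14.5 and 64.7, 75.4 and 99.0 in AE. Lgr5, Apcdd1, Tcf7, Nkd1 and Ccnd1 were the others. The 4 below were the ligand genes Wnt11 and Wnt4, the receptor gene Fzd4 and Dkk3. Fzd4 was at 4.82, 4.74 and 4.04 CPM in ISC, 18.4, 20.1 and 20.9 in E14.5 and 19.7, 19.9 and 33.7 in AE. Wnt11 had 0 counts in the 3 ISC libraries and was low elsewhere, so ISC was at least 4.50-fold lower than E14.5 and at least 2.69-fold lower than AE. Dkk3, a dickkopf-related gene, was at 9.77, 10.6 and 8.57 CPM in E14.5 and under 1 CPM in every adult library.

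Of 21 Notch genes, 3 were above both groups (14.3%) and 0 below, against 4.70% and 4.33% over all genes. Against E14.5, 9 were higher and 9 lower, and against AE 8 were higher and 2 lower. Notch1, a receptor gene, was at 247, 251 and 281 CPM in ISC, 122, 124 and 114 in E14.5 and 38.7, 31.5 and 39.6 in AE. Lfng, which encodes a glycosyltransferase that modifies Notch receptors, had 12.04, 15.3 and 15.1 CPM in ISC, 5.08, 4.86 and 5.45 in E14.5 and 2.31, 1.06 and 1.71 in AE. In the BMP list of 23 genes, 2 were above (8.7%) and 4 below (17.4%), while 7 were higher and 7 lower than the midpoint. Rgmb, a BMP co-receptor gene, was at 208, 224 and 197 CPM in ISC, 31.5, 33.8 and 28.9 in AE and 9.52, 11.3 and 9.40 in E14.5, with log2 changes of 2.74 and 4.37. The ligand gene Bmp2, at 4.25, 4.03 and 1.35 CPM in ISC, 28.2, 32.1 and 28.2 in E14.5 and 14.47, 30.7 and 23.9 in AE, and the BMP target gene Id2, at 13.8, 10.7 and 8.87 CPM in ISC, 60.3, 65.7 and 58.1 in E14.5 and 35.9, 30.8 and 20.1 in AE, were below both. Smad6, an inhibitory Smad gene, was below both as well, with log2 changes of −1.30 against E14.5 and −1.42 against AE, and Smad9, a receptor-activated Smad gene, was above both with 2.73 and 1.79.

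Of the 14 ErbB genes, Lrig1 was above both groups and Errfi1 below (7.1% each way, against 4.70% and 4.33% over all genes). Both restrain ErbB receptors. Lrig1 was at 253, 236 and 268 CPM in ISC, 72.6, 53.9 and 52.2 in AE and 37.9, 38.6 and 40.4 in E14.5. Errfi1 had log2 changes of −1.29 against E14.5 and −1.11 against AE, and its distance was −0.96 without AE replicate 2 and −0.93 without ISC replicate 3, outside the class. Of 18 ephrin and Eph receptor genes, 4 were above (22.2%) and 1 below (5.6%). Those above were the receptor genes Ephb3 and Ephb2 and the ephrin-A ligand genes Efna3 and Efna4. Efna4 was at 25.9, 28.1 and 41.4 CPM in ISC, 9.92, 10.9 and 11.7 in E14.5 and 6.59, 6.70 and 4.34 in AE. Eph receptors are held by crypt base cells and their ephrin-B ligands by villus cells, an arrangement that keeps the compartments apart. The receptor gene Ephb3 stood at 51.6, 56.0 and 50.7 CPM in ISC, 7.80, 7.86 and 6.55 in E14.5 and 8.66, 6.04 and 8.34 in AE. The ligand gene Efnb2 was the reverse, at 24.8, 23.5 and 22.8 CPM in ISC, 69.7, 67.5 and 65.0 in E14.5 and 299, 258 and 259.6 in AE, and its level in E12.5 was 327, 333 and 359 CPM.

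Immediate-early genes, which code for transcription factors and signalling proteins that cells make within minutes of a stimulus, had the largest share above both groups after the stem-cell markers, among lists with 7 or more tested members. Of 34 tested, 14 (41.2%) were above both and 0 below, 25 were higher than the midpoint and 2 lower, and the 14 were all higher than E12.5 too. The median log2 change from the midpoint was 1.69. Cyr61, a matricellular target of growth factor signalling, stood at 958, 683 and 526 CPM in ISC, 72.3, 77.0 and 75.4 in E14.5 and 51.1, 17.5 and 22.5 in AE. Nr4a1, an orphan nuclear receptor gene, was at 219, 103 and 69.8 CPM in ISC, 14.4, 12.9 and 15.1 in E14.5 and 17.8, 3.10 and 6.74 in AE. Egr3 was at 14.1, 8.55 and 5.35 CPM in ISC, 1.97, 1.62 and 2.15 in E14.5 and 0.806, 0 and 0.914 in AE. In all 3 genes the order of the ISC libraries was the same, with replicate 1 highest and replicate 3 lowest, and no ISC library overlapped the other groups. 3 more genes, chosen after their values were seen, show the spread within the adult groups. Egr1 stood at 2994, 2185 and 2004 CPM in ISC, 1132, 284 and 534 in AE and 430.0, 448 and 604 in E14.5, and Jun at 1220.5, 975 and 806 CPM in ISC, 465, 249.97 and 342 in AE and 112, 118 and 120.3 in E14.5. Fos was at 1340.2, 1098 and 840.1 CPM in ISC, 859, 418 and 596 in AE and 62.5, 64.0 and 55.5 in E14.5 and was outside the class, with a log2 change of 0.81 against AE. Summed over the list, the level was 13755, 9966 and 8622 CPM in ISC, 6608, 4139 and 5042 in AE and 1978 to 2173 in E14.5. Per the labels' protocols, crypts were taken through collagenase and DNase I, embryonic intestine through collagenase and adult tissue through EDTA, and this handling cannot be told apart from the groups for these genes.

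Replication-dependent histone genes came next, and many of them share sequence with each other. Of 52 tested, 18 (34.6%) were above both groups and 0 below, with a median log2 change from the midpoint of 1.36. Against E12.5, which also lists multiply aligned reads, 7 of the 18 were higher and the median over the 52 was 0.23. Hist1h2ab was at 9.38, 7.30 and 5.09 CPM in ISC, 1.52, 1.17 and 3.74 in E14.5 and 0.421, 0.490 and 0.114 in AE, while E12.5 had 12.6, 6.71 and 16.3 CPM, and 58.0% of its 50-base stretches occur in another gene. Hist1h2ak was at 35.0, 30.1 and 23.9 CPM in ISC, 9.20, 6.596 and 13.01 in E14.5 and 2.80, 3.02 and 1.37 in AE, with 40.0, 26.3 and 73.7 in E12.5. The class was not confined to genes with shared sequence. Of 12 histone genes that share up to 20% of their stretches, 4 were above both, against 14 of 40 that share more. Hist1h1a and Hist1h1b, linker histone genes named after their values were seen, share 0%. Hist1h1a was at 45.8, 35.3 and 23.7 CPM in ISC, 13.5, 11.7 and 15.7 in E14.5, 7.53, 4.08 and 6.97 in AE and 30.5, 31.8 and 26.3 in E12.5. Hist1h1b was at 68.9, 70.4 and 40.3 CPM in ISC, 22.2, 23.9 and 30.9 in E14.5, 16.4, 9.15 and 13.02 in AE and 52.3, 59.5 and 42.7 in E12.5. For both, ISC replicate 3 was the lowest ISC library.

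Of 49 DNA replication and mitosis genes, 1 was above both groups (2.0%, against 4.70% over all genes) and 0 below. Against AE, 45 were higher and 1 lower, while against E14.5 6 were higher, 15 lower and the others not called, and the median log2 change was −0.21 against E14.5 and 1.59 against AE. That gene was Mki67, a protein of cycling nuclei, at 1857, 2118 and 2380.4 CPM in ISC, 993, 1038 and 1015 in E14.5, 641, 344 and 427 in AE and 1303, 1327 and 1351 in E12.5. Its change against E14.5 was 1.06 ± 0.18 (SE) in log2 (adjusted p = 0.00018), and 0.93 without ISC replicate 3. Of 19 genes of D cyclins, their kinases and cell-cycle inhibitors, 2 were above and 2 below. That is 10.5% each way, against 4.70% and 4.33% over all genes. Cdk6, a kinase gene of the D cyclins, was at 308, 304 and 393 CPM in ISC, 102, 104 and 89.3 in E14.5 and 54.2, 34.1 and 45.8 in AE, and Ccnd1, the cyclin D1 gene, at 282, 275 and 352 CPM in ISC, 114, 115 and 116 in E14.5 and 179, 121 and 92.5 in AE, with a distance of 0.97 without AE replicate 3. The inhibitor gene Cdkn1a, which encodes p21, was at 45.6, 42.0 and 25.5 CPM in ISC, 108, 109 and 110.1 in E14.5 and 375, 385 and 500.1 in AE. Cdkn1c, an imprinted inhibitor gene that encodes p57, fell below both, at 1.33, 2.45 and 1.91 CPM in ISC, 142, 148 and 124 in E14.5 and 6.45, 10.9 and 6.51 in AE. All 36 ribosome biogenesis genes lay outside both classes, with a median log2 change of −0.29 against E14.5 and 1.52 against AE.

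**Figure D3:**
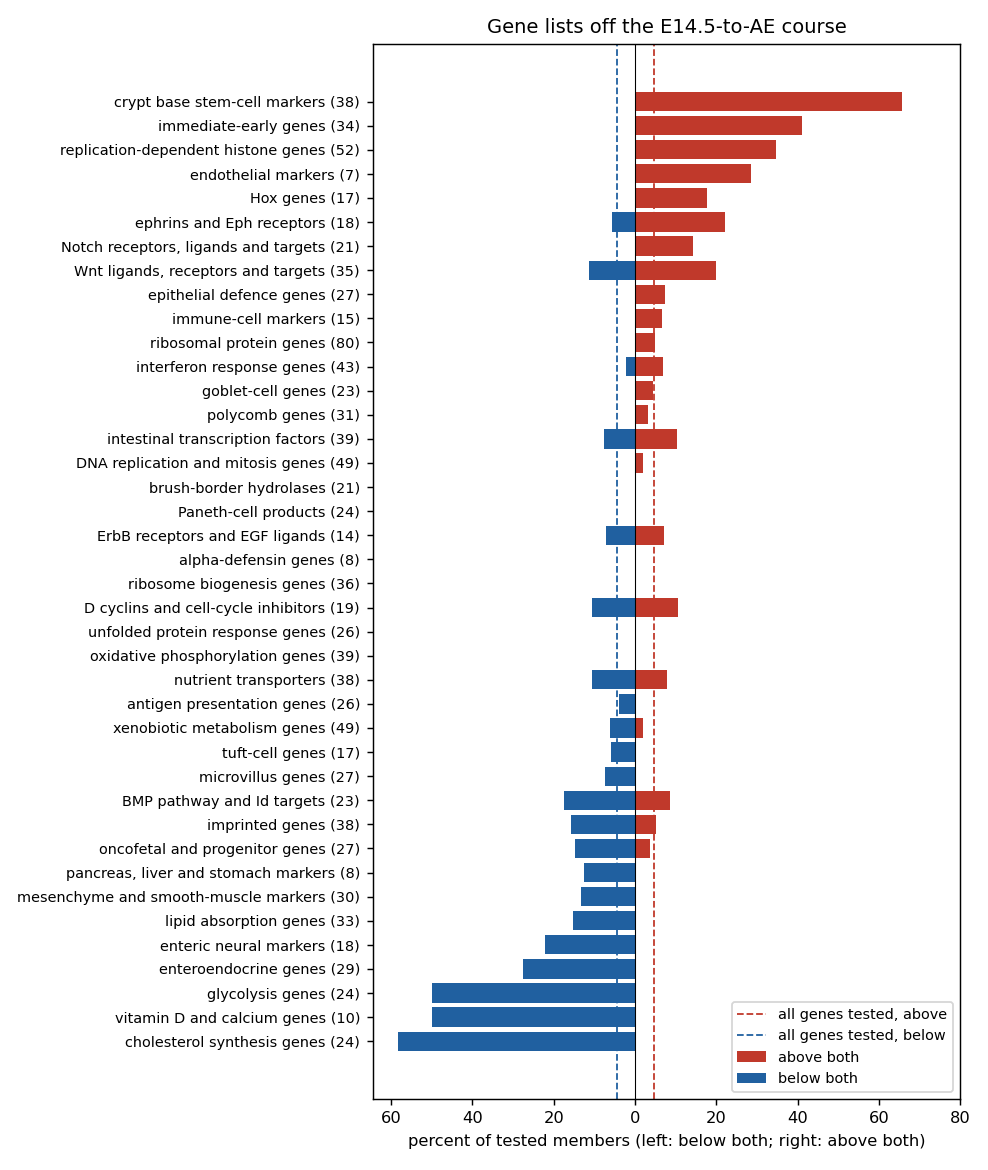
Share of tested members above both groups (red bars, to the right) and below both (blue bars, to the left), in percent, for the gene lists with 7 or more tested members. Dashed lines mark 4.70% and 4.33%, the shares over all genes; stem-cell, immediate-early and histone genes lead on the right and cholesterol, glycolysis and calcium genes on the left.

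On the lower side, the genes farthest from both groups, with at least 10 CPM in E14.5 and in AE, coded for iron, manganese, calcium and lactate carriers, a hormone and an oxygen sensor. Afp, the alpha-fetoprotein gene, stood at 0.127, 0.163 and 0.304 CPM in ISC, 43.0, 46.5 and 37.7 in E14.5 and 108, 81.4 and 123 in AE, so that AE was above E14.5 and ISC was 198-fold below the lower of them. The log2 change was −7.63 ± 0.27 (SE) against E14.5 (adjusted p = 1.9e-11) and −8.92 ± 0.26 against AE (adjusted p = 9.7e-11). Slc40a1, which encodes the iron exporter ferroportin, was at 1.90, 0.817 and 1.65 CPM in ISC, 89.7, 89.2 and 72.9 in E14.5 and 52.2, 104 and 79.2 in AE, 53.6-fold below. Slc30a10, a manganese exporter gene of the zinc transporter family, was at 1.27, 1.69 and 0.478 CPM in ISC, 35.7, 37.0 and 30.8 in E14.5 and 136, 182 and 258 in AE. Slc8a1, the sodium-calcium exchanger gene, was at 0.253, 0.545 and 0.435 CPM in ISC, 13.3, 13.3 and 14.0 in E14.5 and 7.92, 12.1 and 14.4 in AE. In each of these the ISC libraries were within a few CPM of 0 while every E14.5 and AE library held a clear level.

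Egln3, which encodes a prolyl hydroxylase that marks hypoxia-inducible factor for degradation and is itself induced by that factor, was at 0.887, 1.03 and 1.04 CPM in ISC, 66.4, 73.9 and 61.3 in E14.5 and 32.7, 62.6 and 82.3 in AE, 58.7-fold below. Slc16a3, the lactate exporter gene, was at 0.570, 1.36 and 1.00 CPM in ISC, 34.8, 33.6 and 26.9 in E14.5 and 10.1, 21.6 and 26.5 in AE, 19.05-fold below. Gpx3, a secreted glutathione peroxidase gene, and Sulf2, which encodes a sulfatase that trims heparan sulfate, were 18.6- and 16.3-fold below, and Alpk3 and Sytl5 25.5- and 19.8-fold. Sct, the hormone gene of secretin, was at 1.46, 0.872 and 0.391 CPM in ISC, 18.7, 19.4 and 17.1 in E14.5 and 79.2, 159 and 132 in AE. S100a6, a calcium-binding protein gene, was at 1.58, 1.36 and 0.783 CPM in ISC, 29.9, 30.99 and 28.7 in E14.5 and 22.2, 56.4 and 25.9 in AE. These last 2 were the members of the 12 that were not lower than E12.5, where Sct stood at 1.48, 1.199 and 1.10 and S100a6 at 2.41, 1.07 and 0.697 CPM.

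**Figure D4:**
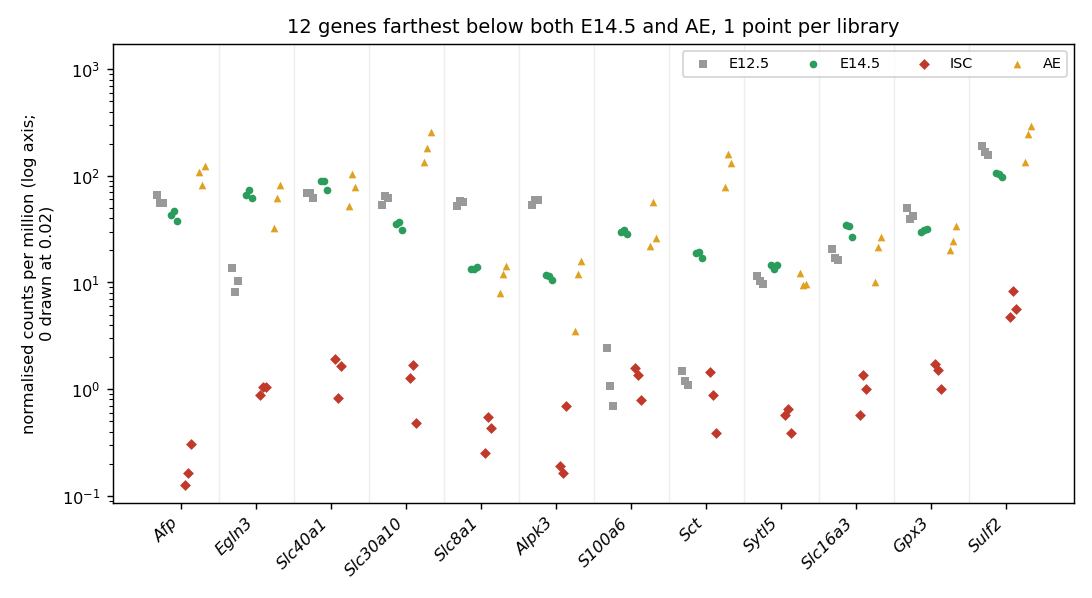
Levels of the 12 genes farthest below both groups, 1 point per library, on a log axis of CPM with 0 drawn at 0.02. Grey squares are E12.5, green circles E14.5, red diamonds ISC and yellow triangles AE; the red diamonds lie below all green and yellow points, and for Sct and S100a6 they lie among the grey squares.

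Glycolysis genes were low in ISC against both ends of the course. Glycolysis splits glucose to pyruvate, and lactate dehydrogenase and the lactate exporter dispose of its product, a set of steps that hypoxia-inducible factor is known to raise as a group. Of 24 genes tested, 12 (50.0%) were below both groups and 0 above, 18 were lower than the midpoint and 1 higher, and the median log2 change was −2.08 from the midpoint, −2.40 against E14.5 and −1.70 against AE. Against E12.5 the median was −1.47, and 11 of the 12 were lower there as well. In the order of the pathway, the 12 included the hexokinase gene Hk1, Pfkp and Pfkfb3 of the phosphofructokinase step, the aldolase genes Aldoa and Aldoc, Tpi1, Pgk1, Pgam1, Pkm, Ldha and Slc16a3.

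Promoter windows of some of these genes are shown for a letter string that bears on them, ACGTG, the core bound by hypoxia-inducible factor and by several other basic helix-loop-helix factors. Each is part of the RefSeq window from 250 bases before to 50 after the annotated start, on GRCm38.p6, read 5′ to 3′ along the gene, and capitals mark ACGTG or its reverse complement CACGT. Of the 12 genes below both groups, 11 had a window and 9 held the string, and 6 of these are shown.
Slc16a3, chr11:120949007-120949066, plus strand, 60 to 1 bases before the start: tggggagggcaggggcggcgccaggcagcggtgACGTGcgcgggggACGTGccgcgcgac
Pfkfb3, chr2:11502111-11502190, minus strand, 100 to 21 bases before the start: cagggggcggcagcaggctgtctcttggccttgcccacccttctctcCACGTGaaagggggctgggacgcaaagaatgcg
Ldha, chr7:46845644-46845783, plus strand, 160 to 21 bases before the start: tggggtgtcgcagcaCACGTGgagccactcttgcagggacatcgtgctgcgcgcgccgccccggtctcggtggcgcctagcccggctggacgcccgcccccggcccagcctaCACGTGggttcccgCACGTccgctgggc
Pgk1, chrX:106186930-106186999, plus strand, 170 to 101 bases before the start: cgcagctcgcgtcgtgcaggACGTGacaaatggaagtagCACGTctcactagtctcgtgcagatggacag
Aldoa, chr7:126799345-126799404, minus strand, 150 to 91 bases before the start: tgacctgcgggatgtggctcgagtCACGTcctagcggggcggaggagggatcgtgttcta
Pgam1, chr19:41911731-41911790, plus strand, 140 to 81 bases before the start: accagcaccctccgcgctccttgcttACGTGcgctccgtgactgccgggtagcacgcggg
Where the 2 strings overlap, as in CACGTG, both are in capitals. On either strand the string was in 11 of 18 windows (61.1%) of the glycolysis genes below both groups, in 50.0% of the 32 windows of all glycolysis genes tested, in 21.1% of 648 windows of all genes below both and in 24.2% of 14120 windows of all genes tested with one. Other strings were searched as well. The sterol regulatory element core was in 0 of 18 windows of cholesterol synthesis genes. The TCF/LEF core was in 0 of 6 windows of Wnt genes above both and in 3 of 31 windows of all Wnt genes. The CArG core was in 0 of 9 windows of immediate-early genes above both and in 6 of 30 windows of all such genes. A match describes the letters and shows no binding.

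Slc16a3, whose levels are given above, fell by 4.25 in log2 against AE (SE 0.36, adjusted p = 1.8e-07) and by 5.00 against E14.5 (SE 0.36, adjusted p = 3.3e-08). Pfkfb3, whose product makes the fructose bisphosphate that activates phosphofructokinase, was at 9.51, 8.17 and 6.22 CPM in ISC, 58.6, 59.2 and 52.5 in E14.5 and 30.3, 74.3 and 52.4 in AE, 6.57-fold below. Pkm, a pyruvate kinase gene that shares 25.8% of its stretches and is uncertain for that reason, was at 172, 144 and 141 CPM in ISC, 1000.1, 1041 and 986 in E14.5 and 1038, 925 and 1034 in AE. The ISC libraries of all 3 genes lay below every E14.5 and AE library. Ldha, the lactate dehydrogenase A gene, was at 520.1, 468 and 521 CPM in ISC, 2189, 2264 and 1973 in E14.5 and 3182, 2719 and 2884 in AE. Pgk1, the phosphoglycerate kinase gene, was at 38.1, 30.9 and 30.0 CPM in ISC, 209, 212 and 178 in E14.5 and 117, 108 and 96.7 in AE. Aldoa, an aldolase gene, was at 116, 99.9 and 95.4 CPM in ISC, 679, 697 and 661 in E14.5 and 427, 337 and 338 in AE, and Pgam1, a phosphoglycerate mutase gene, at 6.65, 6.48 and 5.09 CPM in ISC, 36.0, 38.2 and 34.2 in E14.5 and 32.3, 24.5 and 27.2 in AE. The last 4 were named after their values were seen. Pgk1 and Pgam1 share 53.9% and 36.2% of their stretches and are uncertain too, and against E12.5, where such reads are listed on both sides, their log2 changes were −0.77 and −1.59, and that of Pkm was −2.51.

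The glycolysis genes outside the class show its limits. Pfkp, inside it, was at 32.3, 30.8 and 27.2 CPM in ISC, 85.5, 85.9 and 78.0 in E14.5 and 454, 481 and 400.0 in AE, but E12.5 held 8.28, 10.4 and 8.36 CPM, and it was the gene of the 12 that was higher in ISC than in E12.5. Gpi1 was lower in ISC than in both groups by −0.85 and −1.45 in log2 and missed the size criterion against E14.5. Pfkp and Gpi1 were likewise named after their values were seen. Summed over the list, the level was 2106, 1909 and 1936 CPM in ISC, 5666 to 6258 in E14.5, 11387 to 14355 in AE and 3754 to 4472 in E12.5, without overlap between ISC and any other group. Of 39 oxidative phosphorylation genes, 0 were above or below both groups. Their median log2 change was 0.19 against E14.5 and −1.26 against AE.

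Cholesterol synthesis genes were below both groups in a larger share than any other list examined here. The pathway builds cholesterol from acetyl units and is switched on by SREBP2 when sterols are short. Of 24 genes tested, 14 (58.3%) were below both and 0 above, all 24 were lower than the midpoint, and 23 were lower than each group taken alone. The median log2 change was −1.52 from the midpoint, −1.85 against E14.5, −1.43 against AE and −1.38 against E12.5, and all 14 were lower than E12.5. Sc4mol, which encodes a sterol demethylating oxidase, stood at 13.1, 9.64 and 7.48 CPM in ISC, 84.9, 85.4 and 83.8 in E14.5 and 80.7, 79.3 and 51.2 in AE, 7.06-fold below. Its log2 changes were −3.08 ± 0.20 (SE, adjusted p = 1.3e-08) and −2.82 ± 0.20 (adjusted p = 3.5e-08). Fdps, the farnesyl diphosphate synthase gene, which shares 26.2% of its stretches and is uncertain, was at 12.55, 6.48 and 6.48 CPM in ISC, 76.7, 77.0 and 74.8 in E14.5 and 51.0, 36.6 and 20.8 in AE. Insig1, which encodes a protein that holds back SREBP processing and is itself an SREBP target, was at 48.5, 40.0 and 37.8 CPM in ISC, 278, 295 and 279 in E14.5 and 223, 113 and 156 in AE. All ISC libraries of the 3 genes were below all E14.5 and AE libraries.

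Some members of the cholesterol list were outside the class. Ebp, a sterol isomerase gene, changed by 0.12 in log2 against E14.5 (adjusted p = 0.52) and −1.42 against AE. Srebf2, the gene of SREBP2, was lower than both groups but by less than 1 in log2, at −0.97 against E14.5 and −0.46 against AE. Both were named after their values were seen. In the neighbouring list of 33 lipid absorption genes, 5 were below both (15.2%, against 4.33% over all genes) and 0 above. Scd1, the stearoyl-CoA desaturase gene, was at 1.39, 1.42 and 0.217 CPM in ISC, 16.1, 17.5 and 14.55 in E14.5 and 7.01, 5.96 and 9.94 in AE. Scarb1, a lipoprotein receptor gene, was at 3.99, 3.05 and 2.13 CPM in ISC, 28.98, 30.2 and 27.9 in E14.5 and 7.99, 18.3 and 21.8 in AE, and Mogat2, which encodes a monoacylglycerol acyltransferase of fat absorption, at 4.06, 8.17 and 3.17 CPM in ISC, 21.0, 21.0 and 21.7 in E14.5 and 232, 323 and 307 in AE.

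**Figure D5:**
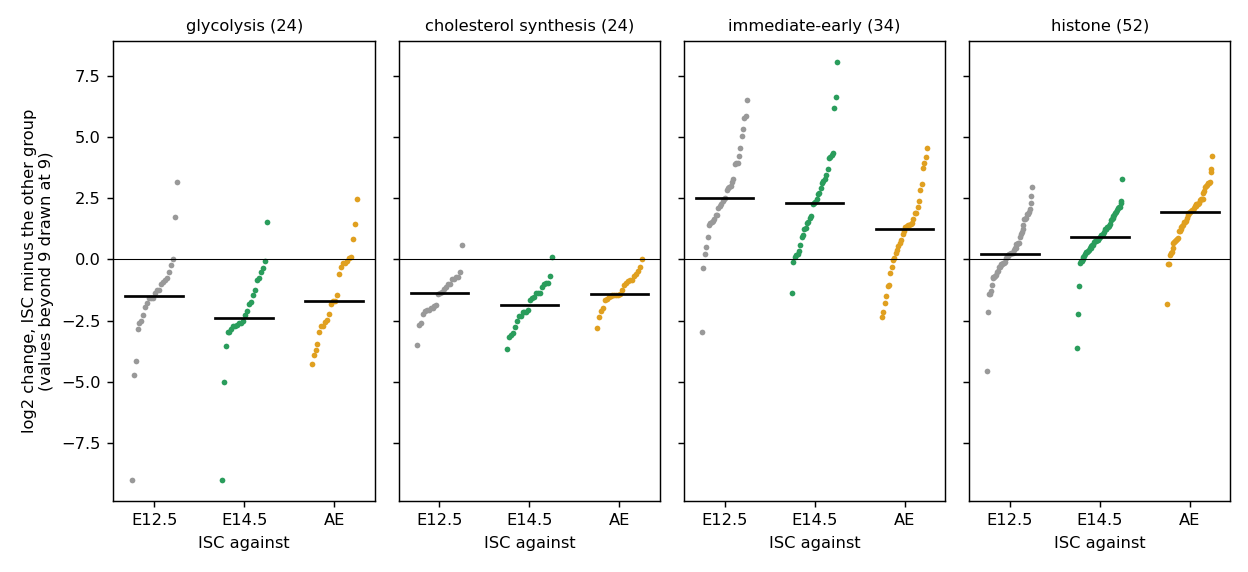
Log2 change in ISC against E12.5, E14.5 and AE for 24 glycolysis, 24 cholesterol synthesis, 34 immediate-early and 52 histone genes, 1 point per gene with a bar at the median and values beyond 9 drawn at 9. Against E12.5 the medians are −1.47, −1.38, 2.49 and 0.23.

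Of 29 enteroendocrine genes tested, 8 were below both groups (27.6%, against 4.33% over all genes) and 0 above, and 21 were lower than the midpoint. The lower levels were mainly against AE, where 23 were lower and 1 higher, while against E14.5 11 were lower and 8 higher. The median log2 change was −1.66 from the midpoint, −2.86 against AE, −0.50 against E14.5 and 0.84 against E12.5. The 8 were Sct, Pyy, Cpe, Scg3, Pax6, Isl1, Rfx6 and Neurod1, of which Sct and Pyy code for hormones and the rest include granule proteins and transcription factors of the lineage. Pyy, the gene of peptide YY, was at 0.887, 0.109 and 0.0870 CPM in ISC, 1.67, 1.31 and 5.98 in E14.5 and 7.25, 20.3 and 11.1 in AE, and Cpe, a prohormone-processing carboxypeptidase gene, at 1.27, 2.07 and 1.70 CPM in ISC, 7.002, 5.85 and 8.61 in E14.5 and 18.5, 34.1 and 25.8 in AE. 4 of the 8 were lower than E12.5 as well. The summed level of 5 enteroendocrine markers was 102 to 157 CPM in ISC, 83.8 to 161 in E14.5 and 1272 to 1640 in AE. Of these markers, Chgb alone averaged 110 CPM in ISC, 81.1 in E14.5 and 865 in AE. Sct and Neurod1 are both among these markers and among the 8 genes. Whether the content of these cells had a part in the result was not tested. Goblet-cell genes had median log2 changes of 1.32 against E14.5 and −2.16 against AE. Of 23, Clca1, which encodes a secreted mucus-processing protein, was above both at 101, 120.1 and 97.2 CPM in ISC, 16.1, 14.1 and 17.4 in AE and 4.86, 4.41 and 5.58 in E14.5, and 0 were below. The goblet-cell share above both was 4.3%, near the 4.70% over all genes. Of 24 Paneth-cell products and 17 tuft-cell genes, 0 were above both, and 0 and 1 below.

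Vitamin D and calcium genes were below both groups in 5 of 10, with 0 above. The median log2 change from the midpoint was −2.10, or −1.26 with genes that have a group at 0 set at their bound. Slc8a1, given above, Trpv6, S100g, Casr and Atp2b1 were the 5. S100g, which encodes the calcium-binding protein calbindin-D9k, was at 8.24, 7.63 and 2.83 CPM in ISC, 24.6, 25.9 and 22.5 in E14.5 and 73.7, 97.5 and 103 in AE, and was not called different from E12.5 (adjusted p = 0.94). Atp2b1, a plasma membrane calcium pump gene, was at 204, 207 and 238 CPM in ISC, 479, 491 and 428 in E14.5 and 470.4, 668 and 593 in AE. The receptor gene Vdr, named after its values were seen, did not follow them, at 1317, 1377 and 1486 CPM in ISC, 876, 1204 and 1293 in AE and 4.44, 3.75 and 4.79 in E14.5.

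Among the remaining absorptive lists, all 21 brush-border hydrolase genes were outside both classes, with median log2 changes of 1.84 against E14.5 and −5.41 against AE. Of 38 nutrient transporters, 3 were above (7.9%) and 4 below (10.5%), against 4.70% and 4.33% over all genes. The 3 were the Slc1 genes given above. Slc28a2, a nucleoside transporter gene that shares 35.4% of its stretches, was below both, at 23.3, 21.4 and 34.3 CPM in ISC, 99.8, 93.1 and 108 in E14.5 and 114, 261 and 342 in AE. Against E12.5, at 18.6, 13.7 and 15.5 CPM, it was higher in ISC, by 0.73 ± 0.30 (SE) in log2 (adjusted p = 0.047). Of 27 microvillus genes, 2 were below (7.4%) and 0 above. They were Espn, the gene of the actin bundler espin, at 2.60, 2.40 and 2.13 CPM in ISC, 9.07, 7.61 and 9.05 in E14.5 and 27.4, 54.8 and 62.0 in AE, and Ezr, the gene of ezrin, which ties membrane to actin, at 176, 189 and 184 CPM in ISC, 405, 424 and 385 in E14.5 and 757, 1808 and 1255 in AE. Of 49 xenobiotic metabolism genes, 1 was above both, Cyp2e1 (2.0%), and 3 below (6.1%).

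In the immune and defence lists the counts off the course were small and not far from the shares over all genes, 4.70% and 4.33%. Of 43 interferon response genes, 3 were above (7.0%) and 1 below (2.3%). Ifitm3, which encodes a membrane protein that blocks virus entry, was at 259, 200.3 and 206 CPM in ISC, 47.7, 49.5 and 44.1 in AE and 2.89, 2.303 and 3.21 in E14.5. Of 27 epithelial defence genes, 2 were above, among them Nod1, a sensor gene for bacterial cell walls, at 23.3, 23.2 and 26.4 CPM in ISC, 5.11, 5.44 and 6.06 in E14.5 and 5.57, 7.84 and 6.17 in AE. Of 26 antigen presentation genes, 0 were above and 1 below, H2-Q10, a class I gene that shares 19.1% of its stretches and is uncertain, at 1.71, 1.53 and 1.78 CPM in ISC, 6.48, 6.26 and 7.43 in E14.5 and 12.7, 7.92 and 6.28 in AE. Of 26 unfolded protein response genes, 0 were off the course.

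Imprinted genes are expressed from 1 parental copy. Of 38, 2 were above both groups (5.3%) and 6 below (15.8%), against 4.70% and 4.33% over all genes. The median log2 change from the midpoint was −1.70, or −1.07 with genes that have a group at 0 set at their bound. Kcnq1ot1, a long non-coding RNA gene of the Kcnq1 domain, was at 1388, 1397 and 1183 CPM in ISC, 366, 396 and 338 in E14.5, 55.8, 52.0 and 87.1 in AE and 919, 1468 and 1256 in E12.5, where it was not called different from ISC (adjusted p = 0.59). It lies antisense to Kcnq1, which was itself high in ISC at 324, 357 and 347 CPM, 1.52, 1.03 and 0.747 in E14.5 and 52.5, 55.4 and 49.2 in AE, while in E12.5, with Kcnq1ot1 at the level just given, Kcnq1 was at 0.449, 0.489 and 0.477 CPM. Whether unspliced Kcnq1 reads entered the Kcnq1ot1 count in ISC was not tested, and no strand setting is stated. Cdkn1c, from the same domain, was given above among the genes below both. Peg3, a zinc-finger gene, was at 3.30, 3.87 and 5.96 CPM in ISC, 26.6, 27.4 and 38.8 in AE and 620.1, 593 and 571 in E14.5. Dlk1, a Notch-related ligand gene, had 0 counts in ISC, 0.841, 1.06 and 0.457 CPM in AE and 18.5, 15.9 and 17.0 in E14.5, so ISC was at least 15.8-fold lower than AE and at least 324-fold lower than E14.5. Of 27 oncofetal and progenitor genes, 1 was above (3.7%) and 4 below (14.8%).

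Of 39 intestinal transcription factor genes, 4 were above both (10.3%) and 3 below (7.7%), against 4.70% and 4.33% over all genes. Myb, a factor gene of proliferating progenitors, was at 479, 497 and 542 CPM in ISC, 143, 104 and 99.7 in AE and 48.5, 50.5 and 51.3 in E14.5. Prdm1, which encodes the repressor Blimp1 that governs the change from fetal to adult epithelium, was at 2.85, 2.12 and 1.61 CPM in ISC, 15.6, 29.3 and 40.9 in AE, 567, 594 and 524 in E14.5 and 612, 543 and 560.1 in E12.5. Pparg, a nuclear receptor gene of lipid metabolism, was at 7.16, 6.97 and 4.48 CPM in ISC, 24.6, 26.6 and 24.4 in E14.5 and 19.9, 29.9 and 29.2 in AE. Of 17 Hox genes, 3 were above (17.6%) and 0 below. Against E14.5, 3 were higher and 9 lower, with a median log2 change of −1.40. Against AE, 14 were higher and 0 lower, with a median of 3.15, and the median against E12.5 was −2.65. Hoxb6 was at 6.72, 9.64 and 10.7 CPM in ISC, 2.09, 2.22 and 1.36 in E14.5 and 0.350, 1.47 and 0.914 in AE, and Hoxb9 at 6.34, 8.88 and 6.87 CPM in ISC, 0.374, 0.371 and 0.0879 in E14.5 and 1.12, 2.70 and 0.228 in AE. Of 31 polycomb genes, 1 was above both (3.2%, against 4.70% over all genes) and 0 below. It was Cbx7, which encodes a chromodomain subunit, at 43.9, 49.7 and 54.2 CPM in ISC, 21.9, 19.2 and 22.3 in E14.5 and 16.1, 10.6 and 15.1 in AE.

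Sharing of sequence was then set against the classes over all genes. Of 5995 genes tested that share no 50-base stretch with another gene, 5.02% were above both groups and 5.00% below. The shares were 4.36% and 4.11% among 7632 genes that share up to 20% of their stretches and 4.88% and 3.10% among 1579 that share more. Counting only sharing with another locus, they were 6.32% and 4.69% among 554 genes over 20%. Among 8939 genes with no such sharing they were 5.03% and 4.63%. In this order, the median log2 changes were 0.26 and 0 against AE, −0.003 and 0.004 against E14.5, and 0.17 and 0.002 against E12.5. Of the genes above both, 80.1% of those with no shared stretch were also higher than E12.5, against 66.2% (51 of 77) of those that share over 20%. Of 80 ribosomal protein genes, 47 share over 20%. Above both were 4 (5.0%, against 4.70% over all genes) and below both 0, and the median log2 change from the midpoint was 0.58. Rpl38 was at 18.4, 18.03 and 10.0 CPM in ISC, 4.29, 3.43 and 4.35 in E14.5 and 2.10, 3.76 and 2.86 in AE. Rpl13, at 51.5, 43.9 and 23.9 CPM in ISC, 17.99, 15.4 and 17.8 in E14.5 and 7.29, 10.6 and 7.31 in AE, had its lowest ISC level in replicate 3 and a distance of 0.99 without ISC replicate 1. Of 8 alpha-defensin genes, which are Paneth-cell products and share 40.2% to 100% of their stretches, 0 were off the course. Defa21, named after its values were seen, was at 59.8, 70.9 and 15.1 CPM in ISC, 56.4, 27.1 and 24.6 in AE and 0, 0 and 0 in E14.5, and the log2 change against AE was 0.41 ± 0.45 (SE, adjusted p = 0.45).

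Markers of cell types outside the epithelium differed in how low they were in ISC. The summed level of 5 mesenchyme markers was 0.826 to 1.77 CPM in ISC, 0.245 to 1.26 in AE and 189 to 252 in E14.5, and the mesenchyme genes Col6a3 and Col6a1, the connexin gene Gja1 and the imprinted Meg3, which were called below both groups, were near 0 in both adult groups. Of 30 mesenchyme and smooth-muscle genes, 4 were below both and 0 above, and the sum over this wider list was 118 to 131 CPM in ISC, 37.8 to 44.7 in AE and 811 to 978 in E14.5. Col6a1, a collagen VI gene, had 13.9, 11.6 and 9.62 CPM in E14.5, 0.0701, 0.0817 and 0 in AE and 0, 0 and 0 in ISC. With ISC set at a floor of 3 counts, Col6a3 was at least 1.92-fold lower than in AE, a bound short of the size criterion. Col6a1 had only 3 counts over the AE libraries, which gives no bound. The summed level of 3 endothelial markers was 0.0435 to 0.545 CPM in ISC, and Cdh5 was at 0 in both adult groups, while the sum over the 7 endothelial genes was 9.3 to 9.9 CPM in ISC, 2.3 to 2.9 in AE and 2.9 to 7.9 in E14.5. The 2 of 7 endothelial genes above both were Esam, at 5.64, 5.34 and 4.74 CPM in ISC, 0.723, 0.488 and 0.439 in E14.5 and 0.666, 0.899 and 0.799 in AE, and Vwf, the von Willebrand factor gene, at 3.23, 3.76 and 4.26 CPM in ISC, 0.299, 0.546 and 0.132 in E14.5 and 0.350, 0.654 and 1.03 in AE. The summed level of 5 immune markers was 21.2 to 22.8 CPM in ISC, between 12.1 to 12.4 in E14.5 and 30.5 to 46.7 in AE. Of 15 immune-cell genes, 1 was above both, the integrin gene Itgae, whose distance was 0.88 to 0.97 without AE replicate 2 or 3 or ISC replicate 2 or 3, at 6.97, 8.61 and 7.83 CPM in ISC, 2.12, 1.83 and 2.59 in E14.5 and 4.38, 3.76 and 3.31 in AE, while the pan-leukocyte gene Ptprc averaged 0.336 CPM in ISC and 1.82 in AE. Of 18 enteric neural genes, 4 were below both and 0 above, of 3 red-cell genes, with sums of 8.6 to 14.4 CPM in ISC, 8.4 to 11.7 in E14.5 and 2.0 to 3.3 in AE, 0 were off the course, and of 8 genes of pancreas, liver and stomach 1 was below.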

How the data were processed

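RNA-seq read counts per gene in 12 libraries of sorted mouse intestinal epithelium were used as deposited by the authors. Raw counts for 23366 gene entries were made by the authors with HTSeq 0.6.1p1 after alignment with STAR 2.3.1z13 to mm9, per the submitters' processing notes, which also name bcl2fastq 1.8.4, SAMtools 1.2 and DESeq2 1.6.3. How multiply aligned reads were treated is not given in the sources used here. The 5 closing entries that name no gene stayed out of library sizes: reads outside genes were 33.4% to 58.1% and ambiguous reads 0.531% to 1.00% of a library's listed total. No 2 libraries of a group agreed within sampling noise.

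Counts were scaled by TMM and tested with edgeR 4.0.16 (R 4.3.3, limma 3.58.1, prior count 0.125) by the quasi-likelihood F test in 1 fit of all 12 libraries, after filterByExpr left 15342 genes, with Benjamini-Hochberg adjustment over them. The contrasts were ISC against the midpoint and against E14.5, AE and E12.5. For fold bounds and medians given with bounds, a group at 0 was set at a floor of 3 counts over its libraries. The classes and distances used the fitted log2 changes without this floor. The depth, 12.6 to 45.2 counts in units of 1000000, limits precision to counting error for genes of few counts. In simulated counts of the midpoint comparison over 14896 genes, 100% of genes changed by a log2 of 2 were recovered, 82% of those raised by 1 and 90% of those lowered by 1. For the call off both groups, taken there without the bound of 1 on the log2 change, 76% were recovered at 1 and at −1, 100% at 2 and 98% at −2. Recovery with that bound was not measured. For each gene, the percentage of its 50-base stretches that also occur in a different gene was taken from GENCODE M21 transcripts, which 23005 entries matched by symbol. That annotation is on GRCm38, not mm9, so gene coordinates are not given. RefSeq promoter windows matched 11121 of the genes tested. Some genes are not reported here.

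The genes, lists and tests were chosen with earlier results of these data known. Named by rule were the 12 genes farthest above both groups (at least 20 CPM in ISC) and the 12 farthest below (at least 10 CPM in both others), without overlap between libraries. The rule also took up to 3 members of each described list and direction (at least 5 CPM), Lgr5, Olfm4, Ascl2, Mki67, Cdx2, Hnf4a and Epcam, markers of other cell types and the shared-sequence families. Alternatives were DESeq2 1.42.0, limma-voom, other scalings, no filter, other thresholds, a replicate term, 9 libraries alone, genes without shared stretches and leaving out each replicate.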

Additional observations from a re-analysis of the deposited data

How the results depend on the processing

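The main counts were 4855 and 4174 genes higher and lower than the midpoint, 4627 and 4692 against E14.5, 5395 and 5002 against AE, and 721 above and 664 below both groups. With genes that share no 50-base stretch, 5995 were tested, and the counts were 1812 and 1625, 1820 and 1921, 2050 and 1929, and 322 and 289. With the 8939 genes that share no stretch with another locus, an alternative chosen after seeing the data, they were 2574 and 2564, 2544 and 2938, 3011 and 2941, and 429 and 431. Both fits test fewer genes. With no bound on the log2 change, 1811 genes were above and 1478 below both, and with a bound of 2, 217 and 328. Leaving out 1 replicate gave 4304 to 5257 higher and 3717 to 4448 lower than the midpoint, 4086 to 5022 and 4250 to 5174 against E14.5, 4969 to 5496 and 4763 to 5094 against AE, 689 to 739 above and 618 to 703 below both. Against the midpoint, upper-quartile scaling gave 5372 higher and 3734 lower, and limma-voom 4816 and 4560. DESeq2 gave 652 above and 728 below both, relative log scaling 655 and 715, upper-quartile scaling 771 and 626, limma-voom 714 and 673, and no filter 750 and 689. Upper-quartile scaling moved the median of all genes against AE from 0.05 to 0.25. Cdx2, not called, changed sign against the midpoint, to −0.00637 with DESeq2, −0.00636 with relative log scaling, −0.00399 without AE replicate 2 and −0.137 without ISC replicate 3, within a range of −0.137 to 0.193 when 1 replicate is left out. Ccnd1 left the class without AE replicate 3 (0.967) and Rpl13 (0.989) and Isg20 (0.935) without ISC replicate 1. Col6a1, Gja1, Meg3, Vim, Snap25, Itgae, Errfi1, Mki67, Ifit1, Cyp3a13 and Ppp1r9a also left it under at least 1 alternative, in the same direction. With a replicate block, 712 genes were above and 644 below both, of which 700 and 638 were also called without it. Same-numbered libraries correlated between −0.134 and 0.214 in their deviations and did not each correlate best with their own number. ISC replicates 2 and 3 correlated best with the AE library of their own number (0.214 and 0.130), and ISC replicate 1 with AE replicate 2 (0.129). Whether the numbers pair the samples cannot be told from these values.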

Other observations

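Further groups of genes were chosen after the values were seen and are given as levels, mean ± SD of 3 libraries in CPM. The counts within these groups depend on that choice and do not measure enrichment. Over all genes, 4.70% were above both and 4.33% below. Of 11 genes of epithelial chloride secretion, 7 were above both groups. Slc12a2, the sodium-potassium-chloride cotransporter gene, stood at 3688 ± 281 in ISC, 388 ± 10.7 in E14.5 and 493 ± 107 in AE. Cftr, the chloride channel gene, was at 857 ± 93.7, 398 ± 18.4 and 415 ± 54.3 in the same order. The potassium channel genes Kcnq1 and Kcne3, whose products form 1 channel, were at 343 ± 17.0, 1.10 ± 0.391 and 52.4 ± 3.08 and at 312 ± 40.8, 59.99 ± 1.48 and 65.5 ± 22.1. Slc12a2 and Kcnq1 are also stem-cell markers of the list above. Ano1, a calcium-activated chloride channel gene, was below both.

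Of 12 genes of the response to low oxygen, 6 were below both groups. Bnip3, a mitophagy receptor gene, was at 1.38 ± 0.387 in ISC, 95.9 ± 14.6 in E14.5 and 9.15 ± 3.15 in AE, and Ndrg1 at 67.0 ± 8.97, 711 ± 48.0 and 147 ± 51.5. Egln3, Ankrd37, Ero1l and Vldlr were the others. Car9, a carbonic anhydrase gene of the same response, was on the course, at 88.2 ± 5.06, 6.81 ± 0.269 and 128 ± 19.8, and Slc2a1, Vegfa, Hif1a, Egln1 and Epas1 were outside the class too. Of 15 genes of fatty acid synthesis, 5 were below both and 1, Acacb, above. Scd2, a desaturase gene, was at 48.2 ± 13.8, 2030.0 ± 87.4 and 175 ± 75.6, and Elovl6, a fatty acid elongase gene, at 75.9 ± 8.57, 341 ± 14.9 and 480.5 ± 142. Of 12 genes of the circadian clock, Per1 was above both and Cry1 and Cry2 below.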
